A study of Homo sapiens with 3 samples.

Results

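OAT, RPL12 and RPS12 are the mRNAs whose 5′ fragments the study of DIS3L2 D391N CLIP examined one by one. Every window that the deposited table lists under these symbols was taken, whatever its RNA class, which gave 5 windows of 1533. OAT and RPL12 had 1 window each and RPS12 had 3, of which the first and second were listed as mRNA and the last as lncRNA. The 4 windows listed as mRNA belong to a class of 1136. The choice made here used no read count and no fraction of uridylated reads. The study, however, took these genes from the same CLIP data and does not state how it picked them. Whether read number entered its pick is thus not known.

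The RNAs were recovered by CLIP, crosslinking followed by immunoprecipitation, from HEK293 cells, a human embryonic kidney line. Per the study's methods the cells were a stable HEK293T-Rex line with inducible expression of DIS3L2 D391N, a catalytically inactive mutant with a C-terminal Flag tag, pulled down by the tag. GEO's labels give 3 replicate libraries of overexpressed DIS3L2 D391N mutant in 1 group, with no control group and no other genotype, treatment or time. The study's methods describe no removal of the endogenous DIS3L2 gene from the line used for CLIP. For each window of 50 nt the table gives 2 numbers, each added up over the 3 libraries by the authors. These are the unique reads, which map to 1 place of the genome, and the U+ or uridylated reads. The latter are the part of them that ends in at least 4 Ts which the genome does not encode. Reads said here to have no tail are all the others, so they may end in fewer such Ts. The 1533 windows hold 2686158 unique and 769021 uridylated reads, and the depth of each library is unknown.

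DIS3L2 is a 3′ to 5′ exoribonuclease of the cytoplasm that prefers RNAs with a 3′ oligo(U) tail, which terminal uridylyltransferases (TUTs) add without a template. RNA polymerase II often pauses shortly after the transcription start, and short capped RNAs that end near the pause come from many promoters. A fragment that starts at the cap and ends upstream of the start codon cannot encode the protein of its gene. OAT is ornithine aminotransferase, a mitochondrial enzyme that joins ornithine to proline and glutamate metabolism. RPL12 (uL11) is a protein of the large ribosomal subunit and RPS12 (eS12) one of the small subunit, and mRNAs of ribosomal proteins typically open with a terminal oligopyrimidine tract, a C at the cap followed by a run of C and T.

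The following stretches of GRCh37 show the annotated starts of the OAT, RPL12 and RPS12 transcripts and the splice sites that lie in their windows. All read 5′ to 3′ on the strand of the gene. In the transcript starts, capitals mark the pyrimidine run that begins at the first annotated base of the canonical transcript, and no capitals mean that the transcript does not open with C. In the splice sites, capitals mark the first or last bases of the intron.
OAT, transcript start, chr10:126107463-126107492, minus strand: gttgcgcttcatagacgccgcgtgtacccg
OAT, end of exon 1 into intron 1, chr10:126107422-126107451, minus strand: gcgctgtcagGTaccgtctgggcgccgctg
RPL12, transcript start, chr9:130213656-130213685, minus strand: CCTCTCggctttcggctcggaggaggccaa
RPL12, last bases of the window, chr9:130213600-130213629, minus strand: atccgggttcatccgacaccagccgcctcc
RPS12, transcript start, chr6:133135708-133135737, plus strand: CTCTTTCCCTgccgccgccgagtcgcgcgg
RPS12, end of intron 1 into exon 2, chr6:133135851-133135880, plus strand: tcaatgcttttgttttttAGtgcgttcaag
RPS12, first bases of the third window, chr6:133136300-133136329, plus strand: ggagttcatggtgttagcgcaaaagttctg

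**Figure D1:**
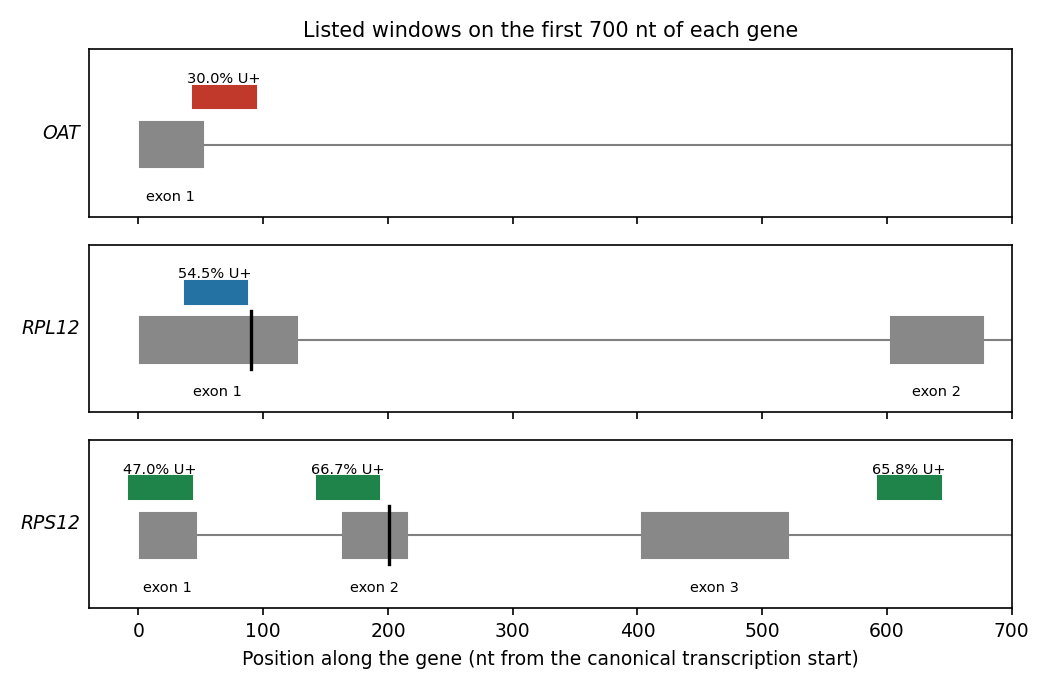
Position of the 5 windows (coloured bars, with their U+ fraction) on the first part of OAT, RPL12 and RPS12, in nt from the first base of the canonical transcript. Grey boxes are exons, the grey line is intron, and a black vertical line marks the start codon where it lies in the range: the OAT bar leaves exon 1, the RPL12 bar ends before the start codon, and the 3 RPS12 bars lie at the start, at the end of intron 1 and downstream of exon 3.

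The OAT window (ENSG00000065154, transcript ENST00000368845) lies on chromosome 10, minus strand, 126107400 to 126107449. It had 10165 unique reads, of which 3046 were uridylated and 7119 had no tail. The U+ fraction was 30.0% (95% Wilson interval 29.1 to 30.9%). Like every interval given here, this one covers counting error alone, since reads copied by PCR are not independent molecules, and no SD between libraries can be had from summed counts.

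Most reads of the OAT window therefore carried no tail by the authors' definition, while its U+ reads still outnumbered those of nearly every other mRNA window. RNase T1, which trimmed the bound RNA, cuts after G, and the OAT window was 40% G, with 58.7% of other mRNA windows lower. The part of such cuts in the untailed reads was not tested. In the study's sequenced clones of small RNA from D391N cells, a measure unlike CLIP reads, most OAT 5′ fragments had an oligo(U) tail. OAT ranked 2 among the 1136 mRNA windows both in unique reads and in uridylated reads. A histone window stood first by unique reads, and 0 of the windows of other non-histone mRNAs had more reads than OAT. The median of the 1132 other mRNA windows was 63 unique reads, and OAT held 161-fold that number. It contributed 5.15% of all unique reads of mRNA windows (interval 5.05 to 5.25%) but 2.81% of the uridylated ones (2.72 to 2.91%). With the histone windows set aside these shares were 7.39% and 3.74%.

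The 5 non-histone mRNA windows that followed OAT in read number were those of KHDC1, RPLP1, GNAS, GLUL and UACA. KHDC1 had 3306 unique reads, 3.07-fold fewer than OAT, and a U+ fraction of 41.9%. RPLP1, a protein of the ribosomal stalk, had 2844 reads and 43.7%. GNAS, the stimulatory G protein alpha subunit, had 2162 reads and 38.0%, and UACA had 1715 reads and 74.1%. GLUL, glutamine synthetase, had 1997 reads and 29.4% (interval 27.4 to 31.4%), which overlaps the interval of OAT. OAT was thus below 4 of these 5 windows and level with GLUL within counting error.

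A lower U+ fraction than that of OAT was found in 17 of the 1132 other mRNA windows, 1.50% of them. When the rule by which the authors kept windows, a frequency likely above 0.25, was applied to the summed reads, 1 of these 17 passed it and 16 did not. At 63 unique reads, the median depth, that limit lies at 34.9%, above OAT. A window of that depth cannot both pass and lie below OAT, so the split says little about OAT. Among the listed mRNA windows the U+ fraction was lower where there were more reads. The rule for keeping windows asks for a higher U+ fraction where reads are fewer. On the summed reads its limit was 36.8% at 38 reads and 25.7% at 10165. The part of this rule in the trend was not tested. The median U+ fraction of mRNA windows outside the histone and ribosomal protein genes was 75.9% in 454 windows with under 50 unique reads, 69.4% in 291 windows with 50 to under 100, 64.9% in 299 windows with 100 to under 500 and 47.8% in 31 windows with 500 or more. Among the 31 windows of OAT's own range, which spanned 24.5 to 85.8%, 2 windows (6.45%) were below OAT. The part of read number in the low U+ fraction of OAT was not tested.

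The authors kept a window when its frequency of uridylation was likely above 0.25, so a rank in U+ fraction is a rank among the windows kept. Recomputed from the summed reads, the posterior probability of a frequency over 0.25 reached 0.95 in 1484 of 1533 windows, 96.8%, and in all 5 windows of OAT, RPL12 and RPS12. The other 49 windows are listed although they miss that limit on the summed reads. The authors multiplied the posterior over libraries, so the floors that follow, from the summed reads, are not the limits they used. At the depth of OAT a window would pass the recomputed limit with 2613 uridylated reads or 25.7%. OAT stood 4.26 percentage points above that floor. RPL12 stood 27.5 points above a floor of 27.0%. The RPS12 windows stood 17.7, 31.7 and 28.9 points above floors of 29.3%, 34.9% and 36.8%, in the order of their position.

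**Figure D2:**
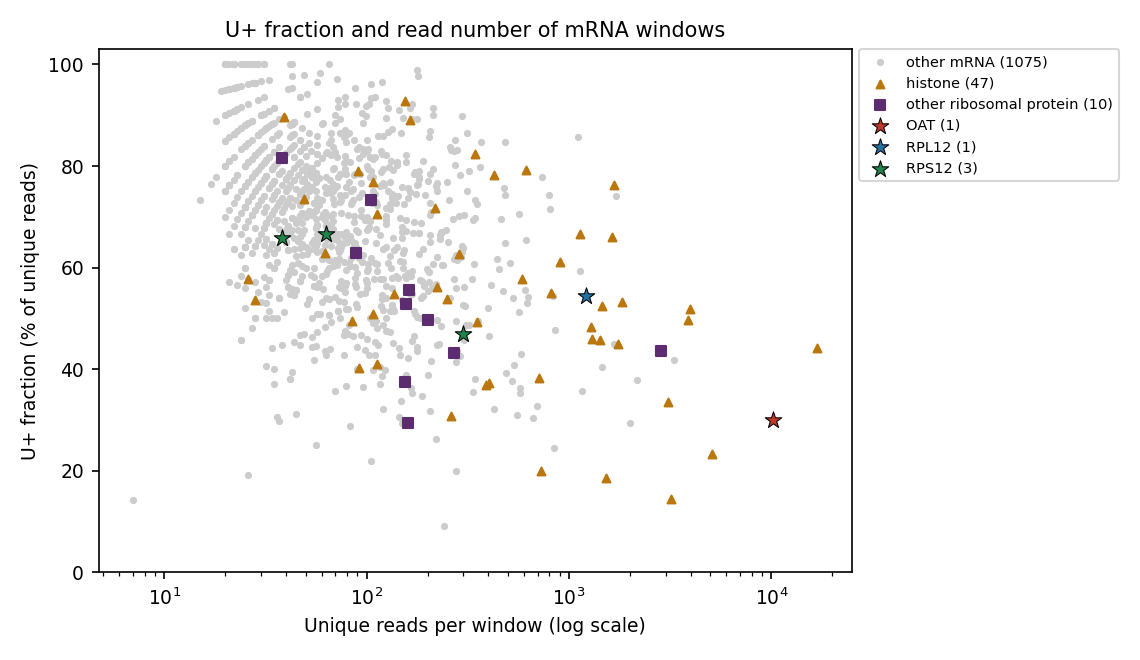
U+ fraction (% of unique reads) against unique reads per window (log scale) for the mRNA windows and the RPS12 window listed as lncRNA, 1 symbol per window. OAT, at 10165 reads and 30.0%, lies at the lower right with more reads than every grey and purple symbol, RPL12 and the first RPS12 window lie among the deeper windows, and the other RPS12 windows lie in the bulk.

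OAT differed from RPL12 and RPS12 in where its window lay. It ran from position +44 to +93 of the annotated transcript, with its midpoint 67.5 nt from the first base, and held the last 8 nt of exon 1 and 42 nt of intron 1. Exon 1 of OAT is 51 nt long and lies wholly in the 5′ UTR, and intron 1 extends over 6672 nt, so the start codon is in exon 2. Most of the window is therefore sequence that splicing removes, including the 5′ splice site printed above. How many of its reads reached into the intron is not given by counts per window.

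Such a place was uncommon among the listed windows. The study, by contrast, reports that a large share of its uridylated fragments from mRNA starts reached from exon 1 into the intron. The counts here are of windows at fixed places that hold this junction, not of fragments or reads that cross it. They therefore do not give the share of such fragments. Of 1075 other non-histone mRNA windows with an annotated transcript, 862 (80.2%) had their midpoint within 150 nt of a transcription start, as did OAT, RPL12 and the first RPS12 window, but only 47 (4.37%) held the end of exon 1 together with intron bases. Of these 47, 8 had at least as many intron bases as the 42 of OAT, and the median was 22. OAT had the most reads of the 48 windows and the lowest U+ fraction. The next in depth was NXF1, an mRNA export receptor, with 342 unique reads and 38.0%, followed by MPP3 with 274 and 85.0% and by SOD1, superoxide dismutase, with 252 and 65.1%. These windows held far less intron than OAT, with 1 intron base in NXF1, 19 in MPP3 and 2 in SOD1. The U+ fraction of the 47 ranged from 38.0 to 100% with a median of 69.4%, at a median of 49 unique reads. In the 14 of them with at least 100 unique reads the median was 57.3%, nearer to OAT. As the deepest of these had 342 reads, no window of this kind as deep as OAT was there to compare.

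**Figure D3:**
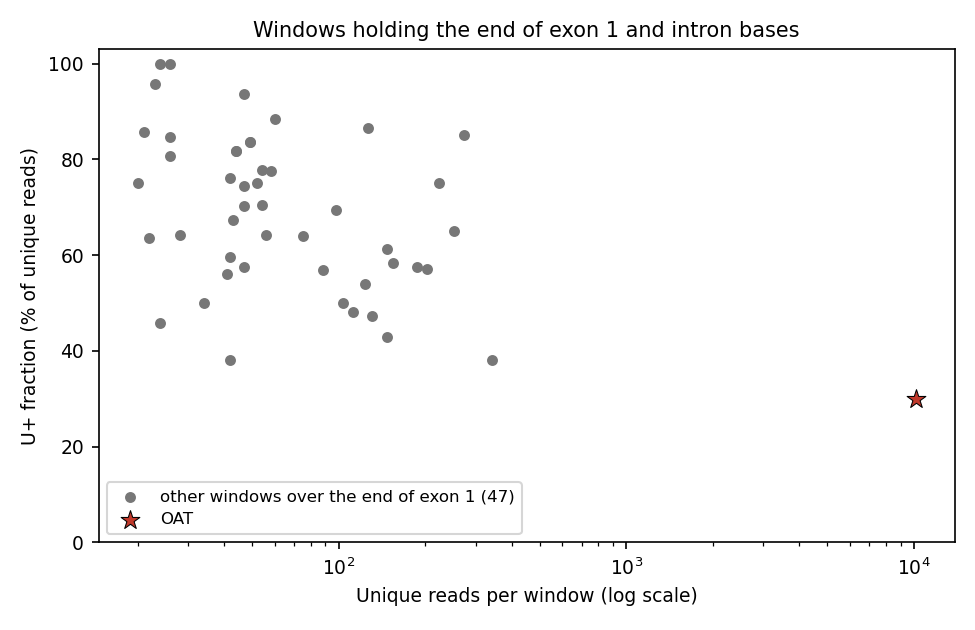
U+ fraction (% of unique reads) against unique reads per window (log scale) for the non-histone mRNA windows that hold the end of exon 1 and intron bases, 1 point per window. The 47 grey windows have at most 342 reads and at least 38.0% U+ reads, and OAT (star) lies apart from them at 10165 reads and 30.0%.

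RPL12 combined a high number of reads with a U+ fraction in the middle of the range for its depth. Its window (ENSG00000197958, listed transcript ENST00000536368) lies on chromosome 9, minus strand, 130213600 to 130213649. It had 1220 unique reads, 665 of them uridylated and 555 without a tail, which gave a U+ fraction of 54.5% (interval 51.7 to 57.3%). Set against the 1132 other mRNA windows, which leave out OAT and RPS12, RPL12 ranked 23 in unique reads and 19 in uridylated reads. Of the non-histone windows among them 7 were deeper, and OAT, not counted in these ranks, was above RPL12 in both numbers. A lower U+ fraction was found in 209 of the 1132 other mRNA windows (18.5%), but in 21 of the 31 windows with 500 or more reads (67.7%). RPL12 was thus low for an mRNA window and above most windows as deep as itself. Its shares of the unique and uridylated reads of the mRNA class were 0.618% and 0.614%.

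The RPL12 window lay entirely in the 5′ UTR within exon 1 and ended 3 nt before the start codon. As many as 484 of the 1075 other windows (45%) lay wholly in a 5′ UTR in exon 1, with a median U+ fraction of 69.8%. The listed transcript places the window at +4 to +53, while the canonical transcript ENST00000361436 starts further upstream and places it at +37 to +86. The canonical start opens with C and a pyrimidine run of 6 nt, whereas the listed one does not open with a run. The window of RPL12 was poor in G, at 20% against a median of 38% in other mRNA windows, and 5.74% of those windows had less G. RNase T1, which the study used to trim the bound RNA, cuts after G, and the part of this in the reads of RPL12 was not tested. The gene LRSAM1 begins 118 nt away on the other strand, and 0 windows on the opposite strand were listed within 1000 nt of any OAT, RPL12 or RPS12 window. Such a neighbour was rare in the class, with 18 of the 1132 other mRNA windows (1.59%).

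The RPL12 window was also the one of the 5 with near-identical copies elsewhere in the genome. Ribosomal protein genes have many processed pseudogenes, which are copies of their mRNA put back into the genome, and the table holds uniquely mapped reads alone. At most 2 differences over at least 45 nt were found at 3 other places for RPL12, on chromosomes 20 and 2, and at 0 places for OAT and for the RPS12 windows. Of the 1132 other mRNA windows, 28 (2.47%) had such a copy. With up to 5 differences over at least 40 nt, RPL12 had 13 copies, among them the pseudogenes RPL12P38 and RPL12P8, and the first RPS12 window had 6, against 79 other windows (6.98%) with any. Reads of RPL12 that match a copy as well as the gene are not in its count, and how many there were is not known here.

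The 3 windows of RPS12 (ENSG00000112306, chromosome 6, plus strand) differed in depth, place and U+ fraction. The first, at 133135700 to 133135749, had 300 unique reads with 141 uridylated and 159 untailed, or 47.0% (interval 41.4 to 52.7%). The second, at 133135850 to 133135899, had 63 unique reads with 42 uridylated and 21 untailed, or 66.7% (54.4 to 77.1%). The last, at 133136300 to 133136349, had 38 unique reads with 25 uridylated and 13 untailed, or 65.8% (49.9 to 78.8%). The window at the transcription start thus had the most reads and the lowest U+ fraction of the gene. Its U+ fraction was 19.7 percentage points below that of the second window (Newcombe interval 6.13 to 31.5) and 18.8 below that of the last (1.92 to 32.9). The second and last differed by 0.877 points, with an interval from -17.0 to 19.9 that leaves room for a difference in either direction. Over the mRNA windows RPS12 had 183 U+ reads of 363, 50.4% (45.3 to 55.5%), and with the lncRNA window 208 of 401, 51.9% (47.0 to 56.7%).

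The place of the RPS12 windows was also taken among windows of their own depth. The first was above 117 of the 1132 other mRNA windows (10.3%) and above 44 of the 299 with 100 to under 500 reads (14.7%). The second was above 461 (40.7%) and above 124 of the 291 with 50 to under 100 reads (42.6%), close to the middle. The last was above 446 (39.4%) and above 108 of the 454 with under 50 reads (23.8%).

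The first RPS12 window crossed the annotated start of ENST00000230050, with 8 nt upstream and 42 of the 45 nt of exon 1. Of the 1075 other windows 230 (21.4%) crossed a start, with a median U+ fraction of 72.0%. The transcript opens with the longest pyrimidine run of these 3 genes, 10 nt. The second window held the last 21 nt of intron 1, which is 118 nt long, and 29 nt of exon 2 up to 8 nt before the coding region. An exon start with intron bases was found in 49 of the 1075 (4.56%), and the start of exon 2 in 7 (0.651%). The last window lay in a retained-intron transcript, ENST00000484616, at +593 to +642, in sequence that is intron 3 of the coding transcript, and ended 96 nt before SNORD101, a small nucleolar RNA encoded in that intron. SNORD100 and SNORA33 lie further downstream in RPS12. The second and last windows, with midpoints at 166.5 and 616.5 nt, are not within 150 nt of the start.

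The second RPS12 window stood apart in composition. It was 40% T, more than 99.2% of other mRNA windows, and 38% G and C, with 2.30% of other windows lower, against a median of 74%. It holds an encoded run of 6 T in the polypyrimidine stretch before the 3′ splice site, and 71 of the 1132 other windows (6.27%) hold a run of 4 or more. Whether such a run entered the count of untemplated T in this window was not tested. In the other windows of OAT, RPL12 and RPS12 the longest run of T was 2 or 3 nt, and within the 50 nt after all 5 windows it was also 2 or 3, against 72 other windows (6.36%) with a run of 4 or more there.

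The order of the U+ fraction over the 5 windows was OAT, the first RPS12 window, RPL12, the last RPS12 window and the second RPS12 window. All 10 pairs were compared with Newcombe intervals, and 7 of these excluded 0. OAT was below each other window, by 24.5 percentage points against RPL12 (21.6 to 27.5) and by 17.0 against the first RPS12 window (11.4 to 22.8). Against the second and last RPS12 windows it was lower by 36.7 (24.4 to 47.1) and 35.8 points (19.9 to 48.9). RPL12 was 7.51 points above the first RPS12 window (1.20 to 13.7). The second RPS12 window was 12.2 points above RPL12 (-0.450 to 22.9) and the last 11.3 points above it (-4.86 to 24.6), so the order of RPL12 and the shallower RPS12 windows was not settled at this depth. Together the 4 windows listed as mRNA had 3894 U+ reads of 11748, 33.1% (32.3 to 34.0%), a value set mainly by OAT, and made up 5.95% of the unique and 3.60% of the uridylated reads of mRNA windows.

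RPL12 and RPS12 were next placed among the cytosolic ribosomal protein mRNAs of the table. The other 8 such genes had 10 windows, with a median U+ fraction of 51.3% (quartiles 43.3 and 61.1%, range 29.4 to 81.6%) and a median of 158.5 unique reads. With the mRNA windows of RPL12 and RPS12 there were 13 windows in 10 genes, with a median of 52.9%, and 11 of the 13 lay below the median of all mRNA windows, 70.4%. The 1122 remaining mRNA windows also had a median of 70.4% but 62 unique reads. As the ribosomal protein windows were deeper, read number and gene group are not separated by these medians.

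Within ranges of read number the difference varied. At 100 to under 500 unique reads the 8 ribosomal protein windows had a median of 48.4% and the 299 windows outside the ribosomal protein and histone genes 64.9%. At 500 or more, RPLP1 and RPL12 had 43.7% and 54.5%, around the median of 47.8% of the other 31. Below 50 reads the window of RPL39L, a paralog of RPL39, had 81.6% beside 75.9%. The range of 50 to under 100 reads is not compared here. Windows are not replicates, and no test was made of this difference.

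The nearest ribosomal protein windows to RPL12 in U+ fraction were one of RPL19, a large-subunit protein, with 90 of 162 reads (55.6%), and that of RPL28, also of the large subunit, with 83 of 157 (52.9%). The nearest to RPS12 as a gene were RPS24, of the small subunit, with 100 of 201 (49.8%), and RPL28. The nearest to OAT were the other RPL19 window with 47 of 160 (29.4%) and the smaller RPLP1 window with 58 of 155 (37.4%), which adjoins the deeper RPLP1 window of 1242 in 2844 and may share reads with it. RPSA, of the small subunit, had 116 of 269 (43.1%). RPS9, of the small subunit, had 77 of 105 (73.3%), and RPL39L 31 of 38. RPS9 and RPL39L were the only ribosomal protein windows above the mRNA median.

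Of the 13 windows, 8 in 7 genes had their midpoint within 150 nt of the canonical start, RPL12 and the first RPS12 window among them, and their U+ fractions ranged from 37.4 to 81.6%. The other 5, which include the second RPS12 window, ranged from 29.4 to 73.3%. Of the 8 windows 7 had 100 or more reads, and of the 5 windows 3 had.

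**Figure D4:**
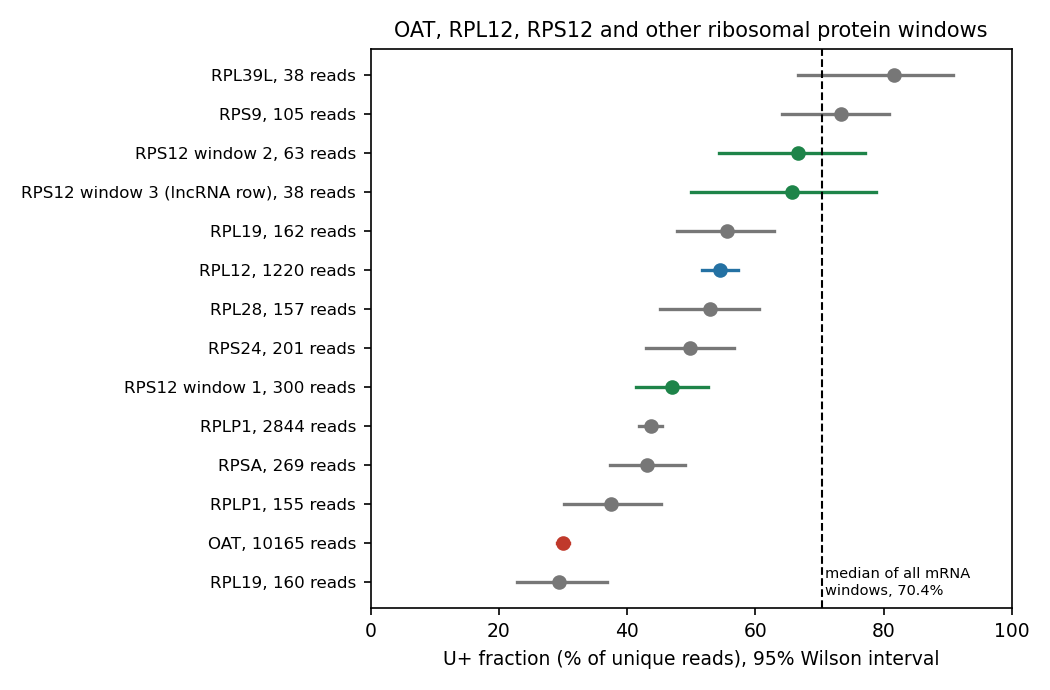
U+ fraction (% of unique reads) with 95% Wilson intervals for the OAT window (red), the RPL12 window (blue), the 3 RPS12 windows (green) and 9 windows of other ribosomal protein mRNAs (grey), ordered by value with unique reads beside each name. The dashed line is the median of all mRNA windows, 70.4%, and only RPS9 and RPL39L have their points to its right.

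A canonical start with C and a run of at least 5 pyrimidines, read on the strand of the gene, was present in RPL12 (6 nt) and RPS12 (10 nt), and in RPS24 (14), RPLP1 (11), RPS9 (9), RPL28 (8) and RPSA (7), but not in RPL19, RPL39L or OAT. Among RefSeq promoters on GRCh38, 1429 of 35116 (4.07%) had the same letters at the start, as did 49 of the 86 promoters of ribosomal protein genes (57.0%). Among the listed transcripts of the other non-histone mRNA windows, 43 of 1075 (4.0%) opened in this way, with a median U+ fraction of 65.8% beside 70.9% in the 1032 that did not. This count uses the listed start, unlike the canonical starts above. RPLP1, RPSA, RPL28 and RPS9 do not open with such a run at their listed starts and fall among the 1032. The match is a description of letters at an annotated base, and where transcription started in these cells was not measured.

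Other genes related by function were looked up from lists. Of 20175 protein-coding genes in the annotation, 997 (4.94%) had an mRNA window, and the lists below are short, so their counts are given as a description. Of 19 gene symbols listed for ornithine and proline metabolism 3 had a window, all below the mRNA median. They were OAT, which was chosen beforehand, GLUL with 587 U+ reads of 1997, and SLC25A15, the mitochondrial ornithine carrier, with 60 of 101 or 59.4% (interval 49.7 to 68.5%). GLUL and OAT thus had about the same U+ fraction and SLC25A15 a higher one. Of 17 further symbols of mRNAs known for an oligopyrimidine start, 1 had a window. This was EEF1B2, a subunit of the guanine nucleotide exchange factor of translation elongation, with 46 of 119 or 38.7% (30.4 to 47.6%). The mitochondrial ribosomal proteins had 3 windows, MRPL55 with 78 of 201 (38.8%), MRPS16 with 43 of 70 (61.4%) and MRPL37 with 19 of 27 (70.4%), of which 2 were below the mRNA median. Of 12 symbols of the uridylation pathway, such as those of the TUT and LIN28 genes and DIS3L2 itself, 0 had a window. The lists of 19, 17 and 12 symbols hold older and newer names of some genes, so they cover fewer genes than symbols.

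The predicted fold of the reference sequence placed the windows on both sides of the mRNA class, whose median GC content was 74% and median minimum free energy -18.8 kcal/mol. The OAT window, with 72% G and C, had -17.2 kcal/mol, and 59.9% of other mRNA windows had a lower, more stable value. RPL12, with 64%, had -11.7 (83.5% lower), and the first RPS12 window, with 72%, had -23.7 (22.6% lower). The second and last RPS12 windows had -2.4 (99.3% lower) and -7.7 (94.2% lower). With 25 nt more on each side the order was different. OAT then had -50 kcal/mol, below the median of -45.8 and the lowest of the 5 windows, RPL12 had -37.2, and the RPS12 windows had -38, -14.8 and -20.4 in the order of their position. The stability of the OAT and first RPS12 windows relative to the class thus depended on the length folded, while the second and last RPS12 windows were among the least stable by either. From the annotated canonical start to the end of the OAT window, the sequence was 93 nt with -32.5 kcal/mol and 60.2% of bases paired. For RPL12 the same stretch was 86 nt with -31.5 kcal/mol and 58.1% paired, and for the first RPS12 window 42 nt with -19.2 kcal/mol and 61.9% paired. The share of paired bases thus differed by a few points among the 3 fragments, though lengths differed and neither the 5′ nor the 3′ ends of the fragments are given by windows of 50 nt.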

How the data were processed

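The deposited table holds unscaled counts of unique and of uridylated reads per 50 nt window, which the authors had added up over the 3 libraries. Per the study's methods, reads were mapped to GRCh37/hg19 with Segemehl, and unmapped reads were mapped again after 3′ T stretches had been trimmed. Uniquely mapped reads with at least 4 untemplated T, 1 mismatch allowed, were called uridylated. Windows with fewer than 20 reads were dropped, although 11 listed windows have fewer (minimum 7). Windows were kept by the posterior, multiplied over libraries, at 0.95. The submitters' processing notes also name Subread, without a version. How reads that overlap a window in part were counted is not given in the sources used here. Windows that adjoin may share reads.

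The total read number covers the listed windows alone. The U+ fraction was computed as uridylated over unique reads, with 95% Wilson and Newcombe intervals (scipy 1.17.1, Python 3.11.15). The posterior was recomputed from the summed counts with a uniform prior. Since the libraries are summed and reads and windows are not replicates, no p-value was computed.

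Positions came from GENCODE release 44 on GRCh37, with window starts read as 1-based. Of 1132 other mRNA windows, 980 were placed on the listed transcript, 125 on the canonical one and 27 on none. Histone genes accounted for 47 mRNA windows. Copies were searched with blastn 2.17.0, and folding energies were computed with RNAfold 2.7.2.

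Named genes were OAT, RPL12 and RPS12, the other cytosolic ribosomal protein genes with a window (1 window enters the group values and is not reported singly here), the 5 deepest non-histone mRNA windows after OAT, the 2 ribosomal protein windows nearest to each gene in U+ fraction, and members of the 4 lists in the report. NXF1, MPP3 and SOD1 were picked with their values in view. The genes, lists and comparisons were chosen with earlier results of these data known. Alternatives were the exact interval, other backgrounds, a minimum of 100 reads, 1 window per gene, pooled reads, other start sites, 0-based starts, longer folds and looser copies. Added after the data had been seen were the medians without RPL39L or without windows that have a copy, pooled reads without histone windows, and ranks among windows that pass the recomputed posterior.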

Additional observations from a re-analysis of the deposited data

How the results depend on the processing

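No paired analysis was possible because the counts were summed over the 3 libraries of 1 group, and for the same reason no library could be left out. The exact interval cannot change a U+ fraction and moves only its limits. For the last RPS12 window, the shallowest, these were 48.6 to 80.4% against 49.9 to 78.8% by Wilson. Without histone windows or with 1 window per gene the place of the 5 windows among mRNA windows moved by less than its counting interval. With at least 100 unique reads the share of other mRNA windows below OAT was 3.18%, below RPL12 34.0% and below the first RPS12 window 20.4%, while the shallower RPS12 windows have too few reads for this minimum. Among windows that pass the recomputed posterior, a choice made after seeing the data, 0.0898% were below OAT. That limit itself removes low U+ fractions, at 63 reads all those below 34.9%, so this share says little about OAT. The median of ribosomal protein windows was 17.5 percentage points below that of other mRNA windows (-17.5), from -13.7 to -19.1 under the other choices of windows, and -8.73 when the reads were pooled. With histone windows left out of the pooled reads, a choice made after seeing the data, it was -14.5. Read as 0-based, the midpoints lay at 66.5 nt for OAT, 26.5 nt for RPL12, and 17.5, 167.5 and 617.5 nt for the RPS12 windows. With 25 nt more on each side, the share of other mRNA windows with a lower folding energy was 33.5% for OAT, 75.4% for RPL12, and 73.8%, 98.5% and 96.5% for the RPS12 windows. OAT and the first RPS12 window thus changed sides of the median, and the cause was not tested. The looser search gave 13 copies for RPL12 and 6 for the first RPS12 window. In the other 36 cases the value was equal, stayed within its interval, counted over reads or, for ranks, over windows, or moved little. The last holds for the ribosomal protein medians, which moved by less than the typical counting error of 1 window. Some of these were equal by construction, such as the exact interval and genes with 1 listed window.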
